A study of Mus musculus with 6 samples.

Results

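The genes described here encode the proteins of the cytosolic ribosome, followed in RNA sequencing of regulatory T cells from mice. These are CD4+ T cells that hold back immune responses and depend on the transcription factor Foxp3. Members were protein-coding genes named Rpsa, Rplp0, Rplp1, Rplp2, or Rps or Rpl plus a number with an optional paralog letter, with a mean of at least 5 FPKM (fragments per kilobase, scaled for depth) over the 6 libraries. The rule gave 80 genes, 32 of the small and 48 of the large subunit, among 47069 rows with an Ensembl gene ID. Of 87 rows with a matching name, 3 were not protein coding (Rps12l1, Rpl6l and Rps4l) and 4 protein-coding rows had lower means (Rpl10l, Rpl3l, Rpl39l and Rpl24). The member nearest the limit was Rpl22l1 with a mean of 33.6 FPKM, and the nearest protein-coding row outside it was Rpl24 with 1.35 FPKM. The Rpl24 row (ENSMUSG00000098274) had 0.63 to 2.08 FPKM in the 6 libraries. Whether this reflects expression or the assignment of reads to that gene ID was not tested, so it is not read as the level of Rpl24.

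The libraries labelled cKO came, by their genotype labels, from Foxp3CreNoc4lfl/fl mice, in which Cre made in Foxp3-expressing cells acts on both floxed Noc4l alleles. The libraries labelled Het came, by their genotype labels, from Foxp3CreNoc4l+/fl mice, which carry the same Cre and 1 floxed allele, so both groups have Cre and no group without it was analysed here. The extraction protocol in the labels writes the Foxp3CreNoc4l+/fl pair for both genotypes, and the genotype label of each library was used. Cells were sorted from lymph node and spleen as CD4+GFP+CD62Lhigh cells and activated with Dynabeads. At 72 h there were 2 libraries per genotype, cKO 2 and cKO 4 against Het 1 and Het 3, and at 48 h there was 1 per genotype, cKO 2 against Het 1. Values were deposited in 2 tables: a first with cKO 2 and Het 1 at both times, and a second with cKO 4 and Het 3. The ages of the mice, and whether libraries came from separate mice or pools, are not stated in the labels, so p-values measure only the spread between these libraries.

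A cytosolic ribosome joins a small 40S subunit, which reads the messenger RNA, to a large 60S subunit, which forms the peptide bond, and both are built of RNA and many small basic proteins. Activated T cells make many ribosomes before they divide. Messenger RNAs of ribosomal proteins belong to the TOP class, which begins with a run of pyrimidines after the cap and whose translation is controlled by mTOR. Noc4l is named for yeast Noc4, a nucleolar factor of small subunit assembly.

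Noc4l itself stood at 81.7 FPKM in the library labelled cKO 2 and 58.1 FPKM in the library labelled cKO 4 at 72 h, against 48.8 FPKM in Het 1 and 40.8 FPKM in Het 3. At 48 h it was 124 FPKM in the library labelled cKO and 99.1 FPKM in Het. The FPKM cover the whole gene, and the targeted gene was higher, not lower, in each library labelled cKO. Every direction below is between libraries as labelled. Estimated depth was 16.4 to 28.8 M fragments per library, and the lowest member, Rpl22l1, still had 209 to 886 fragments. The 5 regulatory T cell markers (Foxp3, Il2ra, Ctla4, Ikzf2 and Tnfrsf18) summed to 2202 to 2798 FPKM in the 6 libraries. Il2ra alone gave 1142 to 1554 FPKM of this, and single markers differed between libraries. Foxp3 had 336 FPKM in cKO 4 and 278 FPKM in Het 3. In cKO 2 and Het 1 at 72 h it had 173 and 147 FPKM. At 72 h Il2ra, Ctla4 and Ikzf2 were likewise higher in cKO 4 than cKO 2 and in Het 3 than Het 1. Tnfrsf18 was lower, with 188 FPKM in cKO 4 and 147 FPKM in Het 3 against 243 and 248 FPKM. Markers of other cells differed: 6 neutrophil genes summed to 341 FPKM in cKO 2 at 72 h and 390 FPKM in cKO 2 at 48 h, and to 21.5 to 75.3 FPKM in the other 4 libraries. In those 4 libraries Ltf alone gave 21.4 to 75.3 FPKM, the other 5 genes had at most 0.20 FPKM each, and 2 to 5 of them were listed at 0. The 5 B cell genes summed to 83.5 FPKM in cKO 2 at 72 h and to 8.18 to 22.6 FPKM elsewhere. The 3 genes of other myeloid cells summed to 25.6 FPKM in cKO 2 at 72 h and 37.5 FPKM in cKO 2 at 48 h, and to at most 0.46 FPKM elsewhere. The CD8 T cell genes Cd8a and Cd8b1 summed to 58.2 FPKM in cKO 2 and 31.8 FPKM in Het 1 at 72 h, and to 5.25 to 6.92 FPKM in the other 4 libraries. The 5 red cell genes summed to 24.5 FPKM in cKO 2 and 27.0 FPKM in Het 1 at 72 h and 30.8 FPKM in cKO 2 at 48 h, and to 1.45 to 5.89 FPKM in the other 3 libraries. The part of these other cells, or of the marker differences above, in any result below was not tested. In bulk RNA fewer cells of a type and less RNA per cell cannot be told apart.

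Start windows of 40 bases, 20 before and 20 from the annotated start on, are shown for members on which the comparisons below turn: the paralog pair with the largest genotype value, Rpl35 and Rpl38 for time, Rps28 and Rpl38 for the difference between tables, and Rpl12, which was low in 1 library. They come from RefSeq on build GRCm38.p6, which is not the build of the files (mm9). Capitals mark the letters CTTTC on the gene's strand, a short pyrimidine stretch of the kind found at TOP starts.
Rps27l (chr9:66946066-66946105, plus strand, first of 2 starts): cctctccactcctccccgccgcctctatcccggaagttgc
Rps27 (chr3:90213629-90213668, minus strand): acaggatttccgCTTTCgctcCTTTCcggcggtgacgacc
Rpl35 (chr2:39005112-39005151, minus strand): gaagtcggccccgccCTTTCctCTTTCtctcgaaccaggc
Rpl38 (chr11:114668560-114668599, plus strand): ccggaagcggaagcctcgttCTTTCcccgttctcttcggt
Rps28 (chr17:33824543-33824582, minus strand): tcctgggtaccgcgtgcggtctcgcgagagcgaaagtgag
Rpl12 (chr2:32961692-32961731, plus strand): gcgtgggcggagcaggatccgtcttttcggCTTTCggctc
The letters CTTTC occurred in the window of 18 of the 60 members that had one (30%) and of 6.44% of 27025 genes. Their reverse complement GAAAG occurred in 5.0% of members and 5.67% of all genes. The remaining 20 members had no window in the table used, Rps29 among them. Of the pair Rps27l and Rps27, the Rps27 window held the letters and neither Rps27l window did. A match is a description of these letters and not a site.

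The 80 members together made up a large share of each library. At 72 h they held 15.5% of summed FPKM in cKO 2 and 9.92% in cKO 4, against 15.96% in Het 1 and 9.90% in Het 3. At 48 h they held 17.4% in cKO 2 and 16.7% in Het 1. The groups at 72 h overlapped, with means of 12.7 ± 3.96% in cKO and 12.9 ± 4.29% in Het (SD, n = 2 each), and the share split by table and not by label. Small subunit genes summed to 0.82 to 0.87 times the large subunit genes in every library. The highest means belonged to Rplp1, an acidic stalk protein, Rpl41, a very small basic protein, Rps2, at the entry of the messenger RNA channel, Rps14, on the platform, and Rplp0, the base of the stalk; these 5 took 12.1% to 14.1% of the members' sum. The lowest were Rpl22l1, Rpl7l1, Rpl23a, Rpl35 and Rps27l, of which Rpl22l1, Rpl7l1 and Rps27l are paralogs and Rpl23a and Rpl35 sit at the peptide exit. FPKM are per length, so these orders compare levels between genes, although reads from near-identical copies may have been split. The order by mean was not the same in both tables. Rpl41 had 3282 FPKM in cKO 2 and 3173 FPKM in Het 1 at 72 h, above Rps14 with 2345 and 2675 FPKM. In cKO 4 and Het 3 it had 1178 and 924 FPKM, below Rps14 with 1714 and 1647 FPKM.

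**Figure D1:**
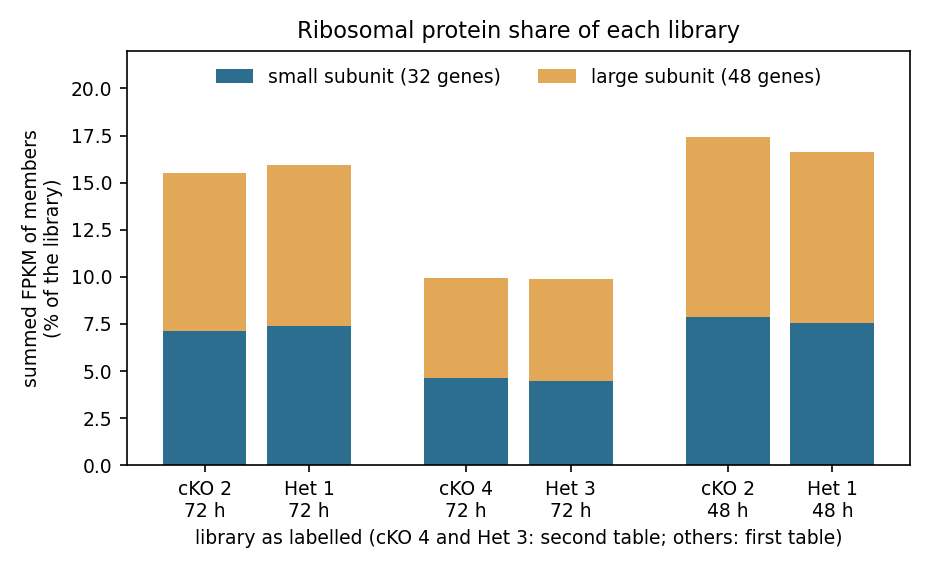
Share of summed FPKM (percent, vertical axis from 0) held by 32 small subunit and 48 large subunit genes in each of the 6 libraries, with cKO left of Het in each pair and 1 library per bar. The libraries of the second table, cKO 4 and Het 3, stand at 9.92% and 9.90%, and the 4 libraries of the first table between 15.5% and 17.4%.

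The second table stood below the first for every member, a comparison added after the values were seen because it bears on how the groups can be read. Rps29 (ENSMUSG00000034892), a zinc-binding protein of the 40S head, had 485 FPKM in cKO 4 and 420 FPKM in Het 3, against 2527 FPKM in cKO 2 and 3080 FPKM in Het 1 at 72 h. Rps28 (ENSMUSG00000067288), another small protein of the head, had 525 and 442 FPKM in cKO 4 and Het 3, against 2194 and 2438 FPKM in cKO 2 and Het 1. No library of the second table reached any 72 h library of the first for these genes. In the limma fit of genotype, time and table over 6 libraries, the second table minus the first was -2.62 ± 0.16 for Rps29 and -2.26 ± 0.14 for Rps28 (log2 of FPKM + 1, SE; adjusted p = 0.0243 for both). These were 2 of the 6 genes called lower among 12394 tested (0.0484%). The members' median was -0.72, against 0.07 over all genes tested, and 78 of 80 members were lower at unadjusted p under 0.05, against 9.39% of all genes. The CD8 T cell markers summed to 6.71 FPKM in cKO 4 and 5.70 FPKM in Het 3, against 58.2 FPKM in cKO 2 and 31.8 FPKM in Het 1 at 72 h. At 48 h, also in the first table, they summed to 6.92 FPKM in cKO 2 and 5.25 FPKM in Het 1. The members held 17.4% and 16.7% of summed FPKM in those 48 h libraries. The part of CD8 T cells in the table difference was not tested.

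The difference was larger for members with short transcripts. Among the 8 members with a mean annotated transcript of up to 500 bases the median log2 ratio of the second to the first table at 72 h was -1.33, and among the 13 of 1000 to 2000 bases it was -0.62. Over the 80 members the ratio and log2 length had Pearson r = 0.42 and Spearman rho = 0.49, a description of points that share the same libraries. Other protein-coding genes of 20 FPKM or more on average had medians of -0.74 (34 genes of up to 500 bases) and 0.02 (2639 genes of 1000 to 2000 bases). Short members of other roles stood in the same range, such as Rpl38, with 398 FPKM in cKO 4 and 422 FPKM in Het 3 against 1314 FPKM in cKO 2 and 1918 FPKM in Het 1 at 72 h. The date and run behind each table are not stated in the labels, and table and replicate numbers 3 and 4 cannot be told apart.

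**Figure D2:**
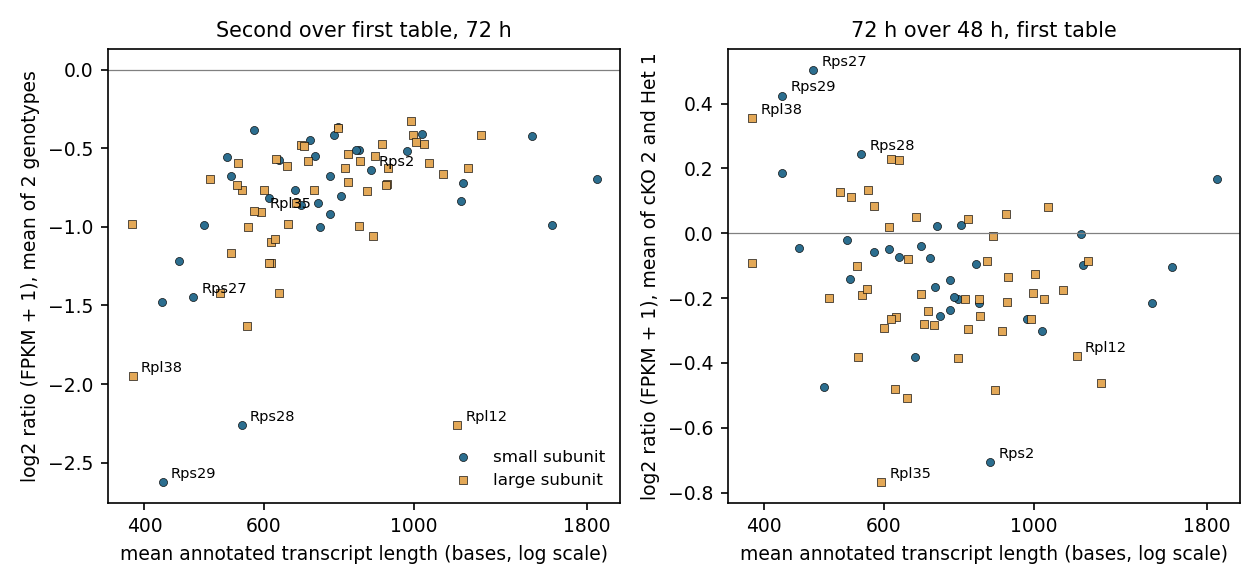
Mean annotated transcript length of each of the 80 members (bases, log scale, horizontal) against its log2 ratio of the second to the first table at 72 h (left; mean of the cKO and the Het ratio) and of 72 h to 48 h in the first table (right; mean of cKO 2 and Het 1), with small and large subunit genes marked apart. All points on the left lie below 0, the lowest being Rps29 at -2.62, and on the right most points lie below 0.

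Genotype at 72 h was the comparison with 2 libraries per genotype, tested within tables. No member passed at an adjusted p under 0.05 in limma, as for all 12488 genes tested (0 called, 0%; 2159 at unadjusted p under 0.05). At unadjusted p under 0.05, 2 members were higher in the cKO-labelled libraries, against 10.3% of all genes, and 1 was lower, against 6.99%. The members' median log2 difference was 0.01, against 0.08 over all genes, and it took the other sign (-0.08) when the log2 values were centred on their medians. Both 72 h pairs gave the same direction for 29 members higher in the cKO-labelled libraries (36.2%, against 42.7% of the 9284 genes averaging 5 FPKM or more) and for 20 lower (25.0%, against 25.4%). The median was -0.02 over 32 small and 0.01 over 48 large subunit genes.

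Rps27l (ENSMUSG00000036781), a paralog of Rps27 known as a target of p53, had the largest value on the higher side. It stood at 456 FPKM in cKO 2 and 171 FPKM in cKO 4, against 217 FPKM in Het 1 and 107 FPKM in Het 3. The groups overlapped across tables, while within each table the library labelled cKO was the higher. The difference was 0.87 ± 0.16 (SE, limma, adjusted p = 0.157). The log2 ratio was 1.07 in the pair with cKO 2, the library with 341 FPKM of neutrophil and 83.5 FPKM of B cell markers, and 0.67 in the pair with cKO 4, where 5 of the 6 neutrophil markers were listed at 0. Rps27, its parent, had 1427 FPKM in cKO 2 and 615 FPKM in cKO 4, against 2044 FPKM in Het 1 and 636 FPKM in Het 3, on the other side of 0 in both pairs. The paralog thus amounted to 32.0% and 27.8% of its parent in cKO 2 and cKO 4, against 10.6% and 16.8% in Het 1 and Het 3. At 48 h the pair was level, with Rps27l at 331 FPKM in cKO and 319 FPKM in Het.

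Rpl35 (ENSMUSG00000062997), a protein of the peptide exit, had 283 FPKM in cKO 2 and 123 FPKM in cKO 4, against 153 FPKM in Het 1 and 99.1 FPKM in Het 3. It was higher in the cKO-labelled libraries within each table, by 0.60 ± 0.19 (SE, limma, adjusted p = 0.257). Further members on that side were Rpl7l1, a paralog of Rpl7 whose yeast counterpart is an assembly factor (0.44 ± 0.17), and Rps2 (0.30 ± 0.15). On the lower side stood Rpl29, a surface protein of the 60S subunit, with 690 FPKM in cKO 2 and 278 FPKM in cKO 4, against 854 FPKM in Het 1 and 477 FPKM in Het 3. Its difference was -0.54 ± 0.17 (SE, limma, adjusted p = 0.256). Rplp0 (-0.35 ± 0.13), Rpl30 (-0.33 ± 0.19) and Rps18 (-0.32 ± 0.13) followed, and none of these passed the test.

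**Figure D3:**
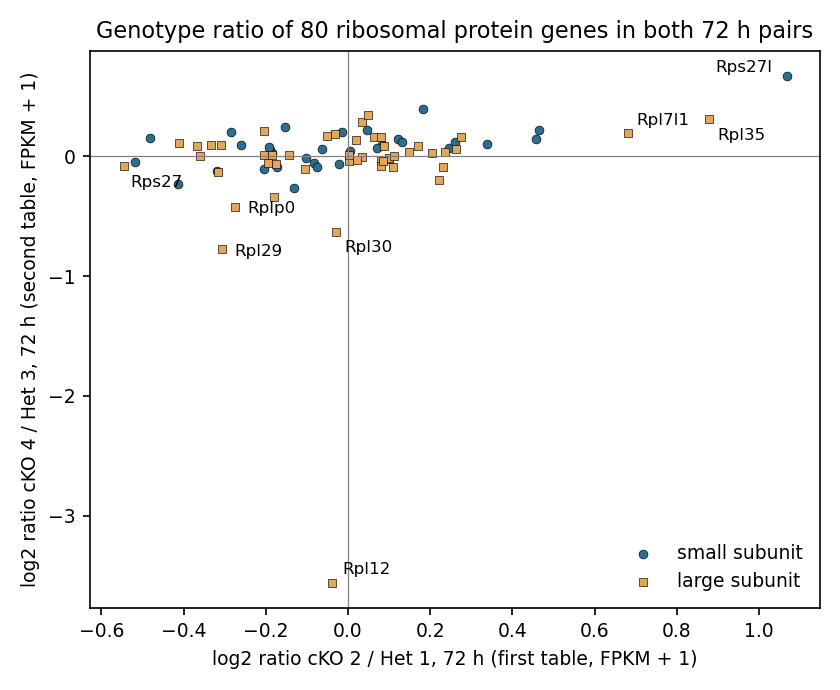
Log2 ratio (FPKM + 1) of the library labelled cKO to Het at 72 h for the 80 members, in the pair of the first table (cKO 2 over Het 1, horizontal) and in that of the second (cKO 4 over Het 3, vertical), 1 point per gene. Rps27l stands at the upper right, and Rpl12 at -3.56 in the second pair with a first-pair ratio of -0.04.

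The value of Rpl12 (ENSMUSG00000038900), which sits at the base of the stalk beside Rplp0, rested on 1 library. It had 1053 FPKM in cKO 2 and 63.8 FPKM in cKO 4, against 1081 FPKM in Het 1 and 763 FPKM in Het 3. At 48 h it had 1432 FPKM in cKO 2 and 1345 FPKM in Het 1. Only cKO 4 was low, and the fitted difference at 72 h, -1.80 ± 0.90 (SE, limma, adjusted p = 0.381), carries a wide error. Without cKO 4 it was -0.04. Of 1210 rows with at least 100 FPKM in Het 3, 6 were at least 10-fold lower in cKO 4: Rpl12, Hsp90aa1, Rrp1, mt-Rnr1, mt-Rnr2 and the clone-named row CT010467.1. The same count was 0 of 1246 in the first-table pair at 72 h and 0 of 1233 at 48 h.

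Over both times together, no member passed and 0 of 12394 genes were called (0%; 1650 at unadjusted p under 0.05). At unadjusted p under 0.05, 3 members were higher (against 8.04% of all genes) and 0 lower (against 5.28%). The members' median was 0.02, against 0.05 over all genes, and -0.04 under median centring. The members at unadjusted p under 0.05 were Rps27l (0.60 ± 0.20), Rpl35 (0.52 ± 0.14) and Rps19, a 40S head protein altered in human Diamond-Blackfan anaemia (0.30 ± 0.10; SE, limma, adjusted p = 0.352, 0.343 and 0.352). Rps19 had 1265 FPKM in cKO 2 and 956 FPKM in cKO 4, against 1114 FPKM in Het 1 and 725 FPKM in Het 3 at 72 h, and 1535 FPKM in cKO against 1237 FPKM in Het at 48 h. Both pairs of the first table and the pair of the second gave Rps19 higher in the cKO-labelled libraries. In all 3 pairs, of which the 48 h and 72 h pairs of the first table share replicate numbers, 26 members were higher in the cKO-labelled libraries (32.5%, against 23.4% of 9284 genes) and 5 were lower (6.25%, against 15.6%): Rplp0, Rpl17, Rps18, Rpl22 and Rps27.

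At 48 h, with 1 library per genotype and no test, 64 of 80 members were higher in cKO 2 than in Het 1 (80%, against 48.8% of 9284 genes), by small amounts. The median log2 ratio was 0.08, against -0.01 over those genes, and no member passed 2-fold, against 0.506% of genes higher and 0.388% lower. Rpl23a, a docking protein at the peptide exit, was the highest at 0.72, with 172 FPKM in cKO and 104 FPKM in Het. Rpl35 (0.36) and Rpl18 (0.33) followed, and Rpl36a (-0.10), Rps29 (-0.10) and Rplp0 (-0.09) were lowest. The library labelled cKO at 48 h was the one with 390 FPKM of neutrophil markers.

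Whether the genotype difference itself differed between 72 h and 48 h was tested as an interaction. No gene passed (0 of 12394, 0%; 708 at unadjusted p under 0.05), and the smallest adjusted p was 0.742. Of the members, 1 was higher at unadjusted p under 0.05 (Rps27l, against 3.43% of all genes) and 1 lower (Rpl23a, against 2.28%). Rps27l had an interaction of 0.82 ± 0.27 and Rpl23a of -0.60 ± 0.21 (SE, limma, adjusted p = 0.856 for both). The members' median interaction was -0.08, against 0.09 over all genes, and under quantile normalization it took the other sign, 0.03. Rpl7l1 (0.42 ± 0.30) and Rpl35 (0.24 ± 0.32) had the next most positive values, and Rpl12 (-1.89 ± 1.58), Rpl29 (-0.64 ± 0.29), Rpl30 (-0.61 ± 0.34) and Rpl3 (-0.58 ± 0.22) the most negative.

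**Figure D4:**
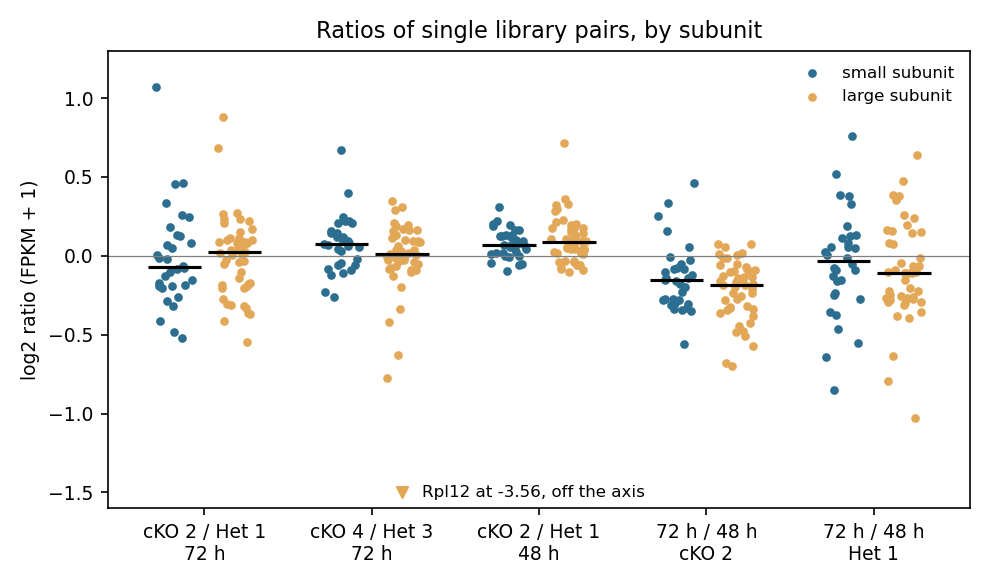
Log2 ratio (FPKM + 1) of single library pairs for 32 small and 48 large subunit genes: the 3 pairs of cKO over Het and the 2 pairs of 72 h over 48 h, with the median of each subunit as a bar; the triangle marks Rpl12 at -3.56, off the axis. At 48 h most points of the cKO over Het pair lie above 0, and in cKO 2 most points of 72 h over 48 h lie below 0.

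Time could be compared only in the first table, with cKO 2 and Het 1 at both times. The members' median difference of 72 h minus 48 h was -0.15, against 0.00 over all genes, and it was below 0 under every scaling tried. CD8 T cell markers moved with time in the same libraries, with 58.2 FPKM in cKO 2 and 31.8 FPKM in Het 1 at 72 h against 6.92 FPKM in cKO 2 and 5.25 FPKM in Het 1 at 48 h. No member passed; 3 of 12394 genes did, all higher at 72 h (0.0242%). At unadjusted p under 0.05, 2 members were higher (against 6.45% of all genes) and 7 lower (against 4.63%). In both cKO 2 and Het 1, which differ in genotype, 48 members were lower at 72 h (60.0%, against 27.7% of 9284 genes). In both, 8 were higher (10.0%, against 27.6%). In cKO 2 the median ratio was -0.17 and 69 of 80 were lower, and in Het 1 it was -0.10 and 51 of 80 were lower.

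Rpl35 and Rps2 stood lowest. Rps2 had 2782 FPKM in cKO 2 and 2025 FPKM in Het 1 at 72 h, against 4096 FPKM in cKO 2 and 3656 FPKM in Het 1 at 48 h. The groups did not overlap, and the difference was -0.71 ± 0.14 (SE, limma, adjusted p = 0.283). Rpl35 had 283 FPKM in cKO 2 and 153 FPKM in Het 1 at 72 h, against 402 FPKM in cKO 2 and 314 FPKM in Het 1 at 48 h, a difference of -0.77 ± 0.18 (SE, limma, adjusted p = 0.312). Rpl22l1 (-0.51 ± 0.15), Rplp0 (-0.48 ± 0.14) and Rpl29 (-0.48 ± 0.22) followed. On the other side, Rps27 had 1427 FPKM in cKO 2 and 2044 FPKM in Het 1 at 72 h, against 1200 FPKM in cKO 2 and 1207 FPKM in Het 1 at 48 h (0.50 ± 0.17; SE, limma, adjusted p = 0.412). Rps29 (0.42 ± 0.16), Rpl38 (0.36 ± 0.17), Rps28 (0.24 ± 0.14) and Rpl19 (0.23 ± 0.16) stood with it. The log2 ratios in cKO 2 and Het 1 were 0.33 and 0.52 for Rps29 and 0.16 and 0.33 for Rps28. They were 0.07 and 0.64 for Rpl38 and -0.01 and 0.47 for Rpl19, so these values came mostly from Het 1. The table differences of these 5 were -1.45 for Rps27, -2.62 for Rps29, -1.95 for Rpl38, -2.26 for Rps28 and -1.09 for Rpl19, against the members' median of -0.72. Both differences use cKO 2 and Het 1 at 72 h, with opposite signs. High time values thus go with low table values in part by construction, and no link is read from them. Transcript length had r = -0.25 and rho = -0.27 with the time ratio over the members. Members whose start window held CTTTC had a median time ratio of -0.20 (18 members), and those without it -0.10 (42 members). Gaps of similar size stood in the cKO over Het ratios. With and without the letters, these medians were 0.07 and -0.02 in cKO 2 over Het 1 at 72 h. They were 0.005 and 0.09 in cKO 4 over Het 3, and 0.11 and 0.05 at 48 h.

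The paralogs had lower FPKM than their parents in every library. Rpl22l1 had 35.4 FPKM in cKO 2 and 19.6 FPKM in cKO 4, against 30.2 FPKM in Het 1 and 22.6 FPKM in Het 3 at 72 h, and 46.4 FPKM in cKO 2 against 47.4 FPKM in Het 1 at 48 h. It made 5.80% to 10.5% of Rpl22, the protein it can replace. Rpl7l1 had 53.6 FPKM in cKO 2 and 33.7 FPKM in cKO 4, against 33.0 FPKM in Het 1 and 29.2 FPKM in Het 3 at 72 h, and made 3.18% to 5.20% of Rpl7. Rpl36al made 37.2% to 58.3% of Rpl36a, a near-identical protein whose reads may be shared. The testis and muscle paralogs Rpl10l, Rpl3l and Rpl39l and the pseudogene row Rps4l were all at or below 0.29% of their parents.

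**Figure D5:**
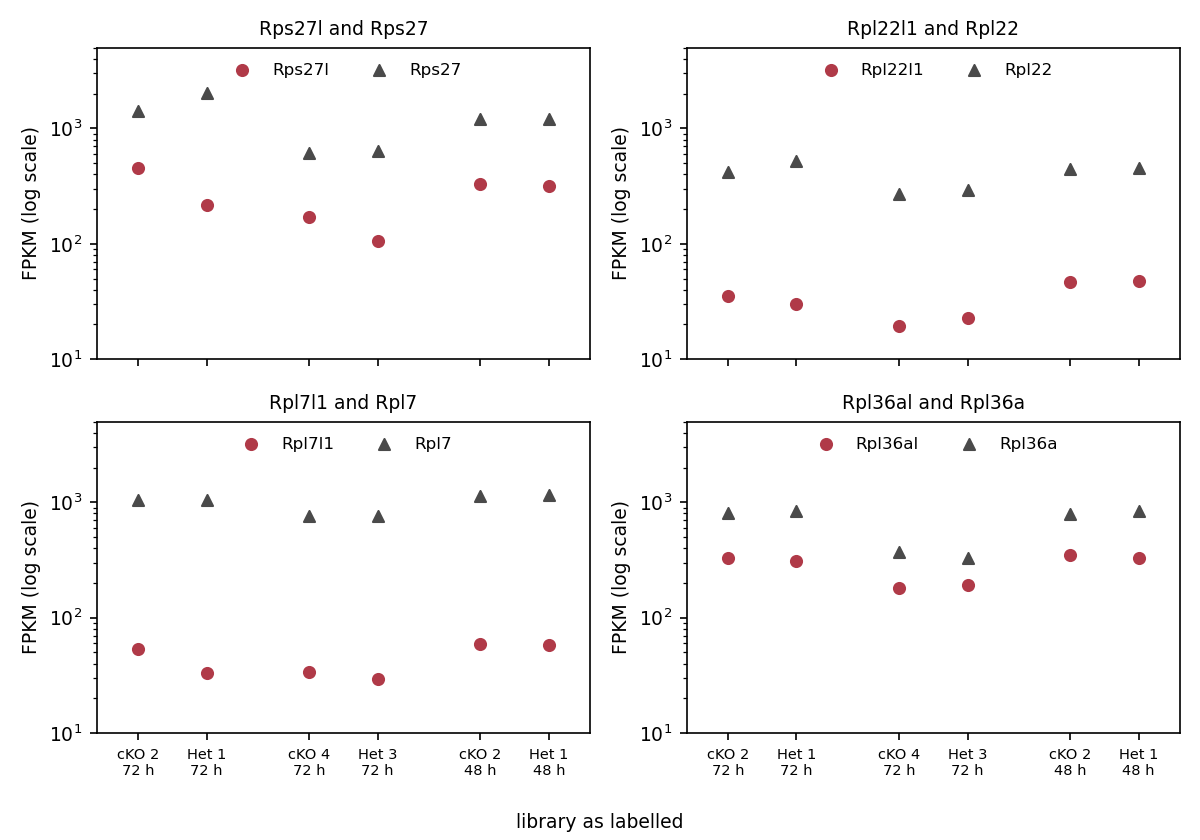
FPKM (log scale, vertical) of 4 paralogs (circles) and their parents (triangles) in each of the 6 libraries, with cKO left of Het in each pair. Rps27l is higher in the cKO library of both 72 h pairs and level at 48 h, and each parent stands above its paralog in every library.

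Members were also described by their place in the ribosome. Of 14 head proteins of the 40S subunit, 6 were higher and 8 lower in cKO at 72 h, with a median of -0.04, and of 17 body and platform proteins 8 were higher and 9 lower, with a median of 0.00. Of the 4 stalk proteins (Rplp0, Rplp1, Rplp2 and Rpl12), 1 was higher and 3 were lower, with a median of -0.26 that includes Rpl12. Rpl5 and Rpl11, which bind 5S RNA and can bind Mdm2, had 1227 and 1736 FPKM in cKO 2 and 851 and 1100 FPKM in cKO 4, against 1135 and 1505 FPKM in Het 1 and 848 and 1078 FPKM in Het 3. The median genotype difference of these genes at 72 h was 0.09. Of 7 proteins at the peptide exit, 4 were higher and 3 lower with a median of 0.00, and Rpl35 was the one at unadjusted p under 0.05. Of 12 members chosen from those altered in human Diamond-Blackfan anaemia, a list that need not be complete, 9 were higher and 3 lower with a median of 0.08. None of these genes passed the test, and these counts and medians are read against 7619 higher and 4869 lower of 12488 genes, with a median of 0.08.

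Ribosomal proteins outside the naming rule include Fau and Rack1. Fau, which carries a 40S protein fused to a ubiquitin-like one, had 1592 FPKM in cKO 2 and 1279 FPKM in cKO 4, against 2195 FPKM in Het 1 and 1532 FPKM in Het 3 at 72 h (-0.36 ± 0.13; SE, limma, adjusted p = 0.296). Rack1, a scaffold on the 40S head, differed by -0.02 ± 0.12 at 72 h. Of 21 other genes of the TOP class, Fau and Rack1 included, 15 were higher and 6 lower in cKO at 72 h, with a median of 0.07 and no call; Eef1g, an elongation factor subunit, had the smallest p (0.55 ± 0.18; SE, limma, adjusted p = 0.269). By time, 18 of these 21 were lower and 3 higher at 72 h, with a median of -0.21 and 4 lower at unadjusted p under 0.05 (against 4.63% of all genes, with 6167 of 12394 lower and a median of 0.00), among them Eif4b (-0.43 ± 0.14) and Pabpc1 (-0.48 ± 0.16), which bind messenger RNA in translation.

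Dedicated chaperones carry single ribosomal proteins to the nucleus or the nascent subunit. The list used here also holds Ipo4, Ipo5, Ipo7 and Nap1l1, which are not limited to single ribosomal proteins. Their genotype differences at 72 h were 0.63, 0.33, 0.20 and 0.29. All 11 measured genes of this list (Pdcd2 was listed at 0) had positive genotype differences at 72 h, with a median of 0.53 against 0.08 over all genes, of which 7619 of 12488 were positive. None passed the test, and 1 of 11 was higher at unadjusted p under 0.05, near the 10.3% of all genes. The median log2 ratio was 0.82 in cKO 2 over Het 1 at 72 h, 0.10 in cKO 4 over Het 3, and 0.09 in cKO 2 over Het 1 at 48 h. From 48 h to 72 h the list's median log2 ratio was -0.81 in Het 1, with 0 of 11 higher. In cKO 2 it was 0.03, with 6 of 11 higher. B cell markers summed to 83.5 FPKM in cKO 2 against 12.4 FPKM in Het 1 at 72 h, to 8.18 FPKM in cKO 4 against 9.11 FPKM in Het 3, and to 22.6 FPKM in cKO 2 against 8.79 FPKM in Het 1 at 48 h. CD8 T cell markers summed to 58.2 FPKM in cKO 2 against 31.8 FPKM in Het 1 at 72 h, to 6.71 FPKM in cKO 4 against 5.70 FPKM in Het 3, and to 6.92 FPKM in cKO 2 against 5.25 FPKM in Het 1 at 48 h. Neutrophil markers were high in cKO 2 at both times. The part of these other cells in the chaperone values was not tested. Bccip, whose yeast counterpart Bcp1 carries Rpl23, had 90.8 FPKM in cKO 2 and 56.3 FPKM in cKO 4, against 51.2 FPKM in Het 1 and 47.3 FPKM in Het 3 at 72 h. The groups did not overlap at 72 h, and cKO 2 stood apart at that time (0.53 ± 0.19; SE, limma, adjusted p = 0.289). At 48 h Bccip had 91.1 FPKM in cKO 2 and 90.1 FPKM in Het 1, so cKO 2 was level over time and Het 1 was lower at 72 h. Heatr3, counterpart of yeast Syo1, a carrier of Rpl5 and Rpl11, had 25.7 FPKM in cKO 2 and 13.0 FPKM in cKO 4, against 10.9 FPKM in Het 1 and 10.8 FPKM in Het 3 at 72 h. At 48 h Heatr3 had 20.8 FPKM in cKO 2 and 23.3 FPKM in Het 1. Of 11 regulators of ribosomal protein synthesis, 7 were higher and 4 lower at 72 h; Mtor (0.38 ± 0.13) and Eif4ebp1 (-0.45 ± 0.12), a translation repressor, had the smallest p values of the list, at adjusted p = 0.272 and 0.233 in limma.

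Pseudogene rows, which can draw reads from the members, were counted apart. Of 273 Rps and Rpl rows with -ps in the symbol, 26 had a mean of at least 1 FPKM and 11 of at least 5 FPKM. Pseudogene rows named otherwise, such as Rps4l and Rpl6l, were not counted. The -ps rows summed to 0.21% to 0.53% of the members' FPKM in each library, which need not be all that pseudogenes draw. The highest were Rpl3-ps1, with a mean of 98.1 FPKM, and Rpl34-ps1, with 86.9 FPKM, and Rpl34 was the 1 parent whose pseudogene rows exceeded 10% of it, at 15.5%. Rpl3-ps1 had 82.3 FPKM in cKO 2 and 132 FPKM in cKO 4, against 94.8 FPKM in Het 1 and 113 FPKM in Het 3 at 72 h, and 26.1 FPKM in cKO against 140 FPKM in Het at 48 h. With the -ps rows added, the members' share at 72 h was 12.8 ± 3.95% in cKO and 13.0 ± 4.29% in Het (SD, n = 2 each).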

How the data were processed

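TopHat2 2.0.12, Bowtie2 2.2.3, HTSeq 0.6.1 and build mm9 are listed, per the submitters' processing notes, with no role. Annotation and strand setting: not given in the sources used here. Where strand is unknown, reads of overlapping genes cannot be told apart. Per the labels' protocols, the SMART-Seq v4 kit was used for library construction. The authors deposited FPKM in 2 tables of 47427 and 47347 rows, 47347 shared. Of these, 278 named by a bare number were dropped, and 46488 of the other 47069 matched a symbol in an annotation of another build, which also gave transcript lengths and gene types.

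FPKM are not counts, so depth was estimated from their steps: 72.1% to 73.7% of low values came within 0.02 of whole fragments (3.63% to 4.32% after scrambling gene lengths). No count test was run. Log2(FPKM + 1), which understates changes of low genes, was fitted in limma 3.58.1 (R 4.3.3) with a variance trend, for genes averaging 1 FPKM or more, and p-values were adjusted by Benjamini and Hochberg over all of them. Table was a term throughout; genotype at 72 h used 4 libraries with 1 residual degree of freedom, and the other fits all 6. The interaction fit had 1 and the additive fit 2. The fits were also run on data simulated from their own fitted spread and design. That checks the calculation, and not whether the model holds for these libraries. Sums, ratios and figures used Python 3.11.15, pandas 2.3.3, numpy 2.4.6 and matplotlib 3.10.9.

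The members and lists were chosen with earlier results of these data known. Genes were named by a rule: Noc4l, the paralogs and their parents, members of known roles, the 5 highest and 5 lowest by level and by change in each fit, the 3 highest and 3 lowest at 48 h, and the 2 smallest p of each list. Rpl17, Rpl34, the pseudogene rows, the rows 10-fold lower in cKO 4 and the table comparison were chosen after the values were seen. A few genes that the rule names are not reported here. Alternatives covered the pseudocount, the filter, scaling, the variance trend, the table term, each library left out and the replicate number as a block.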

Additional observations from a re-analysis of the deposited data

How the results depend on the processing

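No ribosomal protein gene passed the threshold under any alternative that gave a test. The number of genes called for genotype at 72 h was 0 and became 8 with no filter. Over both times it was 0, and 0 to 7 with 1 library left out, 7 both without cKO 4 and without Het 3. For time it was 3, and 1 with pseudocount 5, 0 with no filter and 0 with the replicate number as a block, with 0 to 4 when 1 library was left out, 0 without either 48 h library and 1 without Het 1 at 72 h. The members' median under median centring was -0.083 for genotype at 72 h, -0.037 over both times and -0.16 for the interaction; the interaction was -0.046 with TPM rescaling and 0.027 with quantile normalization, and -0.12 to -0.052 with 1 library left out. Quantile normalization put the time median at -0.064. The difference in share, cKO minus Het at 72 h, was -0.21 percentage points and -3.24 to 2.82 with 1 library left out, since the tables are then unequal in the groups. With 1 library left out, Rpl12 over both times was -1.80 to 0.026, above 0 without cKO 4 or Het 3, and the interaction of Rpl35 was -0.047 to 0.52, below 0 without cKO 2 or Het 1 at 72 h; apart from the share, the cause of these moves was not tested. Without 1 library, genotype at 72 h and the interaction gave values but no test, and the interaction could not be estimated without a 48 h library. Replicate numbers 1 and 2 are each one genotype, so pairing by number could not be checked apart from genotype. Every member had at least 209 estimated fragments in each library, and the number of libraries limits the precision.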
